A study of Mus musculus with 24 samples.

Results

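The enteric nervous system, the neurons and glia inside the gut wall, was followed through 8 of its marker genes in mouse intestine and intestinal organoids. They were Ret, Elavl4, Elavl3, Uchl1, Tubb3, Vip, Sox10 and S100b. Each had 1 probe set that named it alone, so the members were 8 of the 30142 genes that a probe set of the arrays named alone. The list holds gene symbols only, but it was chosen with earlier results of these data known.

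The data came from 24 single-channel Affymetrix arrays that formed 6 groups of 4. Adult organoids were grown from adult intestine and collected at day 30 or day 3 of culture, and fetal organoids were grown from E19 intestine and collected at day 30 or day 3. Adult intestinal tissue and P0 intestinal tissue, from the day of birth, were measured without culture. No strain, genotype, sex or gut segment was given in the labels, the adult age was not stated, and all cultures used ENR medium, named for EGF, Noggin and R-spondin. The fetal organoids and the P0 tissue therefore differ in age as well as in culture. The labels do not say whether the 4 arrays of a group came from separate animals or cultures, so p-values measure only the spread between these arrays.

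Neurons and glia of the gut arise from neural crest cells that migrate into the gut wall, and the RET receptor, bound by GDNF together with the co-receptor GFRA1, is needed for their survival and spread. Their cell bodies lie in the ganglia of the myenteric and submucosal plexus, outside the epithelium. Intestinal organoids are cultures of epithelial cells with crypt-like buds, and the epithelium has a hormone-producing cell of its own, the enteroendocrine cell, which shares several secretory and neuronal genes with neurons.

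Levels are log2 signals as deposited, and a difference of 1 is a doubling of the signal. The background of an array was the median signal of its 5222 negative controls, which lay between 3.84 and 4.61. A group whose mean lay under it has only an upper bound. The negative controls spread widely, with a 95th percentile between 7.27 and 8.06 on the arrays, and among the members only Ret passed that level, on 2 of the 4 P0 arrays. The probe set signals of different genes are not on one scale, so each gene is compared only with itself. RNA of a bulk sample does not tell apart fewer cells of a type from less RNA per cell.

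Some arrays stood apart from the rest of their group in markers of other cells. The mean of 4 pancreatic acinar genes was 6.52, 8.72, 8.68 and 5.28 on fetal day 3 arrays 1 to 4. The mean of 6 fibroblast genes on the same arrays was 6.19, 7.32, 7.43 and 6.62. Adult day 3 array 1 had a fibroblast mean of 6.88, against 5.28 to 5.36 on the other 3 adult day 3 arrays. The members' results and the counts of gene lists that rest on the fetal day 3 group are therefore also given without its arrays 2 and 3; for the gene lists this was chosen after seeing the data. The area under the curve that separates positive from negative control probe sets was 0.865 to 0.922, and array medians were 4.20 to 4.45. A separate set of background probes averaged 4.04, 3.63, 3.50 and 3.43 on fetal day 3 arrays 1 to 4, against 3.27 to 3.51 on fetal day 30 arrays. Negative control medians went the other way, at 3.84 to 4.04 and 4.15 to 4.38. The part of such shifts in small differences of low genes was not tested.

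The stretch of 250 bases before the transcription start was available for 6 of the 8 members from RefSeq, build GRCm38.p6, and is shown for 4 whose levels differed between groups and that had 1 listed start site. Each is written 5′ to 3′ on the strand of the gene, and capitals mark the motifs, which were searched on both strands. They were TATAAA, a core promoter element next to which transcription starts, and GGGCGG, the box bound by factors of the Sp1 family. TGACG is the core of the cAMP response element, and CAGCTG is an E-box, to which helix-loop-helix factors bind. The repressor REST, which keeps neuronal genes silent in other cells, binds a longer element that was searched by its left part, TCAGCAC, and separately by the right part of the same element, written GGACAG.
Elavl3, chr9:22052024-22052273, minus strand: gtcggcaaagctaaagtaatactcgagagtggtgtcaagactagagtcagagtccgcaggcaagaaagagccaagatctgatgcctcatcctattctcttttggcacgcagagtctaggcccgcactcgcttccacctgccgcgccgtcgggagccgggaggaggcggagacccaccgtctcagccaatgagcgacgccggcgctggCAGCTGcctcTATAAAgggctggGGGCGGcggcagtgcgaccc
Tubb3, chr8:123411303-123411552, plus strand: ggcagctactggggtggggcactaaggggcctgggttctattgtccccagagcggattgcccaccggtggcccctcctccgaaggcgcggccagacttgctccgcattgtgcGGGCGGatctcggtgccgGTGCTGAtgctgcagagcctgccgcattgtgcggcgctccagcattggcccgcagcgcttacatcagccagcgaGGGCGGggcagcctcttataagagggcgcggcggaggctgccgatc
Uchl1, chr5:66675871-66676120, plus strand: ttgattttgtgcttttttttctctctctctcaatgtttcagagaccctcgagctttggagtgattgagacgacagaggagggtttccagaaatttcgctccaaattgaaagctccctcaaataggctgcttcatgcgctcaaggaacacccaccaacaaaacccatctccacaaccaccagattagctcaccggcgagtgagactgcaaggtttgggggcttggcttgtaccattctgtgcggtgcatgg
Vip, chr10:5638968-5639217, plus strand: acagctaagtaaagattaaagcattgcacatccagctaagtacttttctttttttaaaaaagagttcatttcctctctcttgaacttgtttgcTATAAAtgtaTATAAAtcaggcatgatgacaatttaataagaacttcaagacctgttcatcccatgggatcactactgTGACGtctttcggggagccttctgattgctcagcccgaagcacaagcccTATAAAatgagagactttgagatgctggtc

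The Elavl3 stretch held an E-box, the TATAAA element at positions -33 to -28 before the start and the Sp1 box at -20 to -15. The Tubb3 stretch held Sp1 boxes at -138 to -133 and -46 to -41, and the left part of the REST element on the opposite strand. The Vip stretch held 3 copies of TATAAA, the nearest at -30 to -25, and the cAMP response core at -79 to -75. None of the 6 motifs lay in the Uchl1 stretch. Of all 32851 promoters of this length, 12.4% held the TATAAA element, 32.7% the Sp1 box, 17.8% the cAMP response core, 13.0% the E-box, and 4.23% and 18.7% the left and the right part of the REST element. The GC content was 68.0% for Tubb3, 61.6% for Elavl3, 48.8% for Uchl1 and 38.4% for Vip, against a median of 52.4% over all promoters. A match of letters is a description and shows no binding.

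Ret, the receptor tyrosine kinase of the GDNF family ligands, had its highest level in newborn gut. Its log2 levels were 5.95, 5.72, 5.74 and 5.96 in adult tissue, against 7.56, 7.91, 7.88 and 7.48 in P0 tissue. In adult organoids they were 5.57, 5.77, 5.53 and 5.93 at day 30, against 5.60, 5.59, 5.74 and 5.69 at day 3. In fetal organoids they were 6.01, 6.10, 5.86 and 6.14 at day 30, against 6.19, 6.06, 6.25 and 6.86 at day 3. Every P0 array was above every other array, while each further neighbouring pair in the order fetal day 3, fetal day 30, adult tissue, adult day 30 and adult day 3 overlapped. Ret was above the background on all 24 arrays, organoids included.

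Elavl4 and Elavl3 encode HuD and HuC, RNA-binding proteins of postmitotic neurons. Elavl4 had log2 levels of 3.72, 3.77, 3.93 and 3.83 in adult tissue, against 5.19, 5.27, 5.14 and 4.82 in P0 tissue. In fetal organoids it had 3.63, 3.61, 3.62 and 3.56 at day 30, against 4.10, 3.92, 3.99 and 3.90 at day 3. In adult organoids the lowest and highest array were 3.49 and 3.65 at day 30, against 3.46 and 3.62 at day 3. For Elavl4, P0 tissue was above the background on all 4 arrays, by a mean of 0.75, with 59.7% to 66.7% of negative controls at or below its level. Fetal day 3 organoids were 0.05 above the background on average, while the other 4 groups were below it. Elavl3 had 4.13, 4.17, 4.12 and 4.38 in adult tissue, against 5.16, 5.05, 4.87 and 4.97 in P0 tissue. In fetal organoids Elavl3 had 4.13, 4.22, 4.22 and 4.17 at day 30, against 4.66, 4.50, 4.48 and 4.16 at day 3, and in adult organoids it had 4.09 to 4.29 at day 30, against 4.15 to 4.27 at day 3. The 5 groups below P0 tissue overlapped with their neighbours in the order of Elavl3 levels.

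Uchl1, the deubiquitinating enzyme also known as PGP9.5, and Tubb3, the neuronal class III beta-tubulin, were measured above the background on all arrays. Uchl1 had log2 levels of 5.85, 6.13, 6.37 and 6.18 in adult tissue, against 7.38, 7.23, 7.58 and 6.93 in P0 tissue. In fetal organoids Uchl1 had 5.15, 5.31, 5.27 and 5.38 at day 30, against 5.67, 6.13, 6.32 and 5.82 at day 3. In adult organoids Uchl1 had 5.32, 5.31, 5.24 and 5.29 at day 30, against 5.41, 5.29, 5.56 and 5.44 at day 3. Its order therefore had 3 tiers without overlap between them: P0 tissue, then adult tissue with fetal day 3 organoids, then the other 3 organoid groups. Tubb3 had 4.83, 5.30, 5.27 and 5.34 in adult tissue, against 6.03, 6.06, 5.99 and 5.70 in P0 tissue. Among organoids Tubb3 ranged from 4.90 to 5.12 in adult day 30, 5.02 to 5.25 in adult day 3, 4.95 to 5.25 in fetal day 30 and 5.20 to 5.63 in fetal day 3 cultures. Below P0 tissue, all neighbouring groups of Tubb3 overlapped.

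Vip encodes vasoactive intestinal peptide, a transmitter of inhibitory motor neurons and secretomotor neurons, and was the 1 member with its highest level in adult gut. Its log2 levels were 5.30, 5.20, 5.51 and 5.24 in adult tissue, against 4.997, 4.81, 4.73 and 4.92 in P0 tissue. In fetal organoids they were 3.74, 3.92, 3.85 and 3.87 at day 30, against 4.05, 4.22, 4.20 and 3.97 at day 3. In adult organoids they were 3.92, 3.81, 3.91 and 3.80 at day 30, against 3.96, 3.72, 4.04 and 3.79 at day 3. Adult tissue, P0 tissue and fetal day 3 organoids followed each other without overlap, and the means of the other 3 organoid groups were below the background.

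Of the 2 glial markers, Sox10 differed little between gut wall and epithelial cultures, and S100b averaged under the background in both. Sox10, a transcription factor of neural crest cells and glia, had log2 levels of 5.71, 5.83, 5.84 and 6.15 in adult tissue, against 5.85, 5.82, 5.95 and 6.18 in P0 tissue. In organoids Sox10 ranged from 5.59 to 6.13, and the means of the 6 groups spanned 0.30. S100b, a calcium-binding protein of glia, averaged below the background in all 6 groups, with means between 3.76 and 3.90. Sox10 was above the background on every array, in organoids too, and neighbouring groups overlapped throughout the order of both genes. Neither probe set thus gave a level that separated all tissue from all organoid arrays. Among all members only the Vip probe set did. For Sox10, every fetal day 3 array (5.77 to 6.13) was above every fetal day 30 array (5.59 to 5.71). That difference was not called (limma adjusted p = 0.0931). Of all genes, 9.17% were lower without overlap at day 30 than at day 3 of fetal culture. For S100b only bounds hold.

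**Figure D1:**
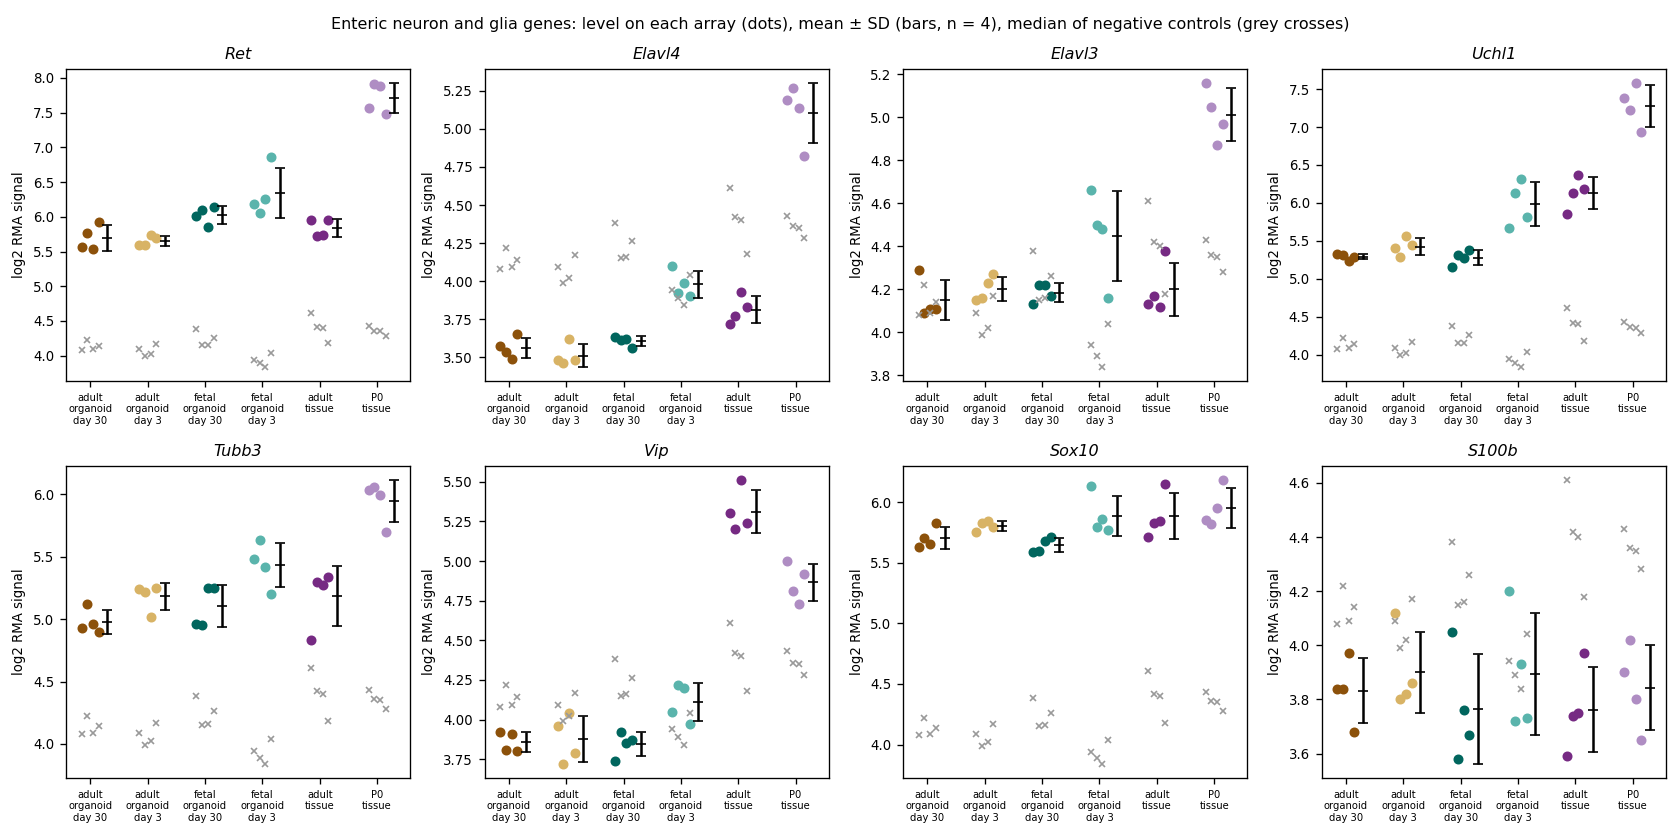
Log2 level of each of the 8 genes on each array, by group, with the mean and SD of 4 arrays as bars and each array's negative control median as a grey cross. Ret, Elavl4, Elavl3, Uchl1 and Tubb3 are highest in P0 tissue, Vip is highest in adult tissue, and S100b stays below the background mean in every group.

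Over the 24 arrays, Elavl4 moved most closely with Ret (Pearson r = 0.95), Uchl1 (0.94), Elavl3 (0.94) and Tubb3 (0.89). Vip had r = 0.71 with Uchl1 and 0.37 with Ret. Sox10 had r between 0.40 and 0.56 with the neuronal genes, and S100b between -0.15 and 0.22 with the other members. These correlations describe arrays that share 6 group means, above all the high P0 group, and carry no test.

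The comparison of adult with newborn gut asks how the markers stand after postnatal growth. Of the 8 members, 5 were lower and 1 was higher in adult tissue, against 27.3% of all genes called in either direction, 12.3% lower and 15.0% higher. A call is an adjusted p under 0.05 in limma with Benjamini-Hochberg adjustment over all 30142 genes, n = 4 arrays per group in every comparison. All 6 called members had arrays that did not overlap between the groups, as 13.4% of all genes did in the lower and 17.3% in the higher direction. The median difference of the 8 members was -0.78 on the log2 scale, against 0.08 over all genes.

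Ret showed the widest difference, averaging 5.84 ± 0.13 in adult tissue and 7.71 ± 0.22 in P0 tissue (SD), a log2 difference of -1.86 ± 0.14 (SE), or 3.64-fold lower in adult tissue (limma adjusted p = 2.90e-10). Uchl1 averaged 6.13 ± 0.22 in adult tissue and 7.28 ± 0.27 in P0 tissue, 2.21-fold lower in adult tissue (log2 difference -1.15 ± 0.13, limma adjusted p = 4.24e-07). Tubb3 was 1.69-fold lower in adult tissue (log2 difference -0.76 ± 0.11, limma adjusted p = 1.93e-05). For all 3 genes every adult array was below every P0 array.

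Elavl4 and Elavl3 lay under the background in adult tissue, so their folds are bounds. Elavl4 was at least 1.63-fold lower (fitted log2 difference -1.29 ± 0.08, limma adjusted p = 1.66e-11) and Elavl3 at least 1.47-fold lower in adult tissue (fitted -0.81 ± 0.09, limma adjusted p = 1.93e-07). Such a bound sets the P0 mean against the higher, on each adult array, of the gene's own level and the negative control median. Vip went the other way, 1.36-fold higher in adult tissue (log2 difference 0.45 ± 0.09, limma adjusted p = 0.000336). Sox10 differed by -0.07 (95% interval -0.27 to 0.12, limma adjusted p = 0.587) and S100b was below the background in both groups.

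Markers of other cells of the gut wall moved in the same comparison. Of 8 smooth muscle and interstitial cell genes, 6 were lower in adult tissue, of 6 fibroblast genes 5, and of 4 endothelial genes 4, with median differences of -1.16, -1.38 and -1.56. The mean log2 level of the smooth muscle list was 6.61 to 7.52 in adult tissue, against 8.27 to 8.64 in P0 tissue. That of the fibroblast list was 6.81 to 7.22 in adult tissue, against 8.02 to 8.77 in P0 tissue, and that of the endothelial list 5.46 to 5.90, against 6.88 to 7.48. All 7 epithelial genes were higher in adult tissue, with list means of 10.43 to 10.71, against 9.83 to 9.88 in P0 tissue. Of 6 leukocyte genes, 5 were higher and 1 was lower in adult tissue. All genes of these 5 lists except the leukocyte genes Ptprc and Cd3e in P0 tissue were above the background in both tissues. Of 4 mesothelial genes 3 were lower in adult tissue, of 4 acinar genes 1 and of 17 enteroendocrine genes 2, with 0 higher in each. The part of these shifts in the members' differences was not tested.

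**Figure D2:**
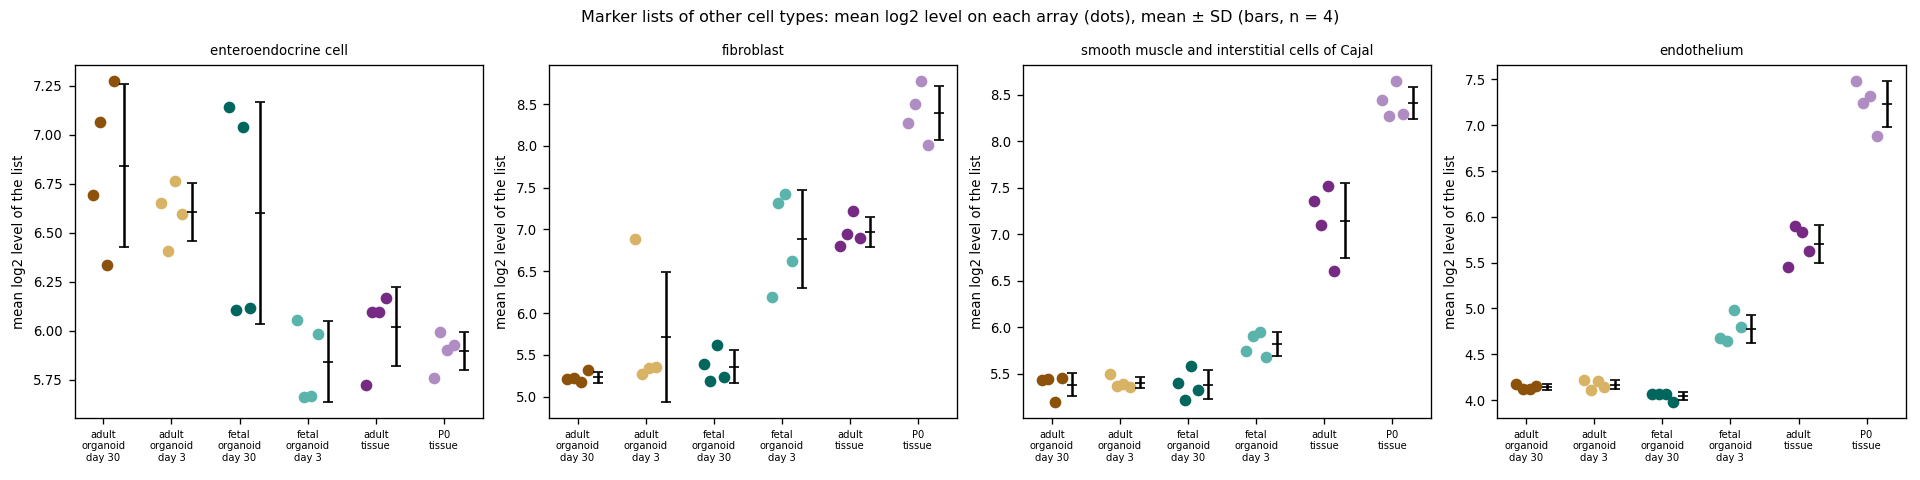
Mean log2 level of 4 marker lists of other cell types on each array (dots), with the mean and SD of 4 arrays as bars, by group. The smooth muscle, fibroblast and endothelial lists are highest in P0 tissue, and fetal day 3 organoids are above fetal day 30 organoids in the fibroblast and endothelial lists, while the enteroendocrine list is higher in fetal day 30 than in fetal day 3 organoids on every array.

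The wider set of 17 measured pan-neuronal genes had 11 lower and 0 higher in adult tissue, with a median of -0.57. Of the 11, Dcx was below the background in both tissues and Nefl and Map2 in adult tissue, where their levels are only bounds. Ncam1, a neural adhesion molecule also made by other cells, was 2.61-fold lower (log2 difference -1.38 ± 0.13, limma adjusted p = 1.29e-08). Stmn2, a regulator of microtubules in growing axons, was 1.98-fold lower (limma adjusted p = 5.38e-07). Syt1 and Snap25, of the synaptic vesicle release machinery, differed by -0.96 ± 0.09 and -0.79 ± 0.16 (limma adjusted p = 2.75e-08 and 0.000704). Most of the list thus went with the 5 members that were lower in adult gut.

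Of 10 measured ligands, co-receptors and receptors of the RET and endothelin pathways, 5 were lower and 1 was higher in adult tissue, with a median of -0.09. Ednrb, the endothelin receptor that crest cells need to colonise the distal gut, was 4.39-fold lower (log2 difference -2.13 ± 0.10, limma adjusted p = 1.63e-13). Its ligand gene Edn3 was 2.51-fold higher (1.33 ± 0.16, limma adjusted p = 6.90e-07). The GDNF co-receptor Gfra1, the neurturin co-receptor Gfra2 and the ligand Gdnf differed by -0.43, -0.63 and -0.32 (limma adjusted p = 0.000118, 6.55e-05 and 0.00888). The other ligands and the further co-receptor of this family, Nrtn, Artn, Pspn and Gfra3, were not called, with log2 differences of 0.14 to 0.17. The endothelin-converting enzyme Ece1 was 1.52-fold lower (limma adjusted p = 0.000616).

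Transmitter genes split in direction, with 3 higher and 6 lower of 16 measured and a median of -0.14. The galanin gene Gal was 1.83-fold lower in adult tissue (log2 difference -0.88 ± 0.07, limma adjusted p = 1.36e-09) and the neuronal nitric oxide synthase gene Nos1 differed by -0.26 (limma adjusted p = 0.0120). Nmu was lower with its adult level under the background (fitted -0.79 ± 0.10, limma adjusted p = 1.08e-06). Npy, the gene of neuropeptide Y, was 1.79-fold higher (0.84 ± 0.12, limma adjusted p = 8.29e-06), and Th, tyrosine hydroxylase, differed by 0.27 (limma adjusted p = 0.0240). Of the 3 called higher, Calb2 was below the background in both tissues. Vip and Npy were thus above the P0 level in adult gut while Gal was below it.

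Transcription factors and glial genes gave no common direction. Of 6 measured factors, Tbx3 was 1.63-fold higher (limma adjusted p = 0.000162) and Hand2, needed for neuron differentiation in the gut, 1.29-fold lower in adult tissue (limma adjusted p = 0.00479), and 4 were not called. Of 10 glial and Schwann cell genes, 2 were higher and 1 was lower. The neuregulin receptor gene Erbb3, which epithelial cells express too, was 1.83-fold higher (limma adjusted p = 0.00133), Cnp 1.25-fold higher (limma adjusted p = 0.0193), and Fabp7 was lower with its adult level under the background (fitted log2 difference -1.27, limma adjusted p = 2.93e-09).

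Relatives of the members changed with them in part. Of 15 measured relatives and receptors, 7 were lower and 1 was higher in adult tissue. The beta-tubulin gene Tubb2a was 4.46-fold lower (log2 difference -2.16 ± 0.22, limma adjusted p = 7.77e-08) and Tubb2b 2.32-fold lower (limma adjusted p = 0.0104). S100a1, a relative of S100b, was 4.45-fold lower (limma adjusted p = 1.91e-08). The VIP receptor gene Vipr1 was 2.07-fold higher (1.05 ± 0.19, limma adjusted p = 0.000131) and Vipr2 differed by -0.53, with its adult level under the background (limma adjusted p = 0.000331).

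Fetal day 3 organoids were set against P0 tissue, across a difference in age. Of the 8 members 6, all but Sox10 and S100b, were lower in the organoids and 0 were higher, while 44.5% of all genes were called, 13.9% lower and 30.6% higher. Ret was 2.58-fold lower (log2 difference -1.37 ± 0.14, limma adjusted p = 6.30e-08) and Uchl1 2.46-fold lower (-1.30 ± 0.13, limma adjusted p = 8.20e-08). Elavl4 was 2.19-fold lower (limma adjusted p = 2.98e-10), Vip 1.69-fold (4.04e-07), Elavl3 1.48-fold (2.73e-05) and Tubb3 1.43-fold (0.00108). In the organoids Elavl4 and Vip averaged only 0.05 and 0.18 above the background, each above it on 3 of 4 arrays. Sox10 differed by -0.07 (95% interval -0.26 to 0.13, limma adjusted p = 0.584). Without fetal day 3 arrays 2 and 3, the same 6 members were called, with Ret at -1.18 and Uchl1 at -1.54. That fit called 37.5% of all genes.

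The gut wall markers moved with them. Of 8 smooth muscle and interstitial cell genes 6 were lower in the organoids and 1 was higher, with list means of 5.68 to 5.95 in fetal day 3 organoids, against 8.27 to 8.64 in P0 tissue. All 4 endothelial genes were lower, with list means of 4.64 to 4.99 in the organoids, against 6.88 to 7.48 in P0 tissue, and so were all 6 fibroblast genes, at 6.19 to 7.43, against 8.02 to 8.77. Of 7 epithelial genes 5 were higher and 1 was lower, of 6 leukocyte genes 4 and 2, of 17 enteroendocrine genes 4 and 3, of 4 mesothelial genes 1 and 3, and all 4 acinar genes were higher. Their part in the members' differences was not tested. Among the neural lists, 12 of 17 pan-neuronal genes were lower and 0 higher in the organoids. Of 6 transcription factors 4 were higher and 2 lower, and of 10 RET and endothelin genes 2 and 4. Higher and lower genes numbered 4 and 6 of 16 transmitter genes, 3 and 1 of 10 glial genes and 5 and 3 of 15 relatives. Of the genes counted, Dcx, Slc5a7 and Adcyap1 were below the background in both groups. Nefl, Nmu, Calcb and Fabp7 were below it in the organoids, and Dbh and Sox2 in P0 tissue. With arrays 2 and 3 of fetal day 3 left out, the smooth muscle, endothelial and fibroblast genes still had 6, 4 and 6 lower and the pan-neuronal genes 11, while the transmitter genes had 3 higher and 3 lower and the enteroendocrine genes 2 and 3.

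Fewer members were called between adult organoids and adult tissue. Their share was near that of all genes called in either direction. At day 3, 3 of the 8 were lower and 0 higher, against 35.6% of all genes called, 13.5% lower and 22.1% higher. At day 30 the count was again 3 lower and 0 higher, against 38.2% called, 15.2% lower and 23.0% higher. Both counts rest on the same adult tissue arrays. Vip was at least 2.37-fold lower in day 3 organoids (fitted log2 difference -1.44 ± 0.09, limma adjusted p = 1.15e-11) and at least 2.27-fold lower in day 30 organoids (-1.45 ± 0.09, limma adjusted p = 5.92e-12), with the organoids under the background. Uchl1 was 1.64-fold lower at day 3 (-0.71 ± 0.13, limma adjusted p = 0.000136) and 1.79-fold lower at day 30 (-0.84 ± 0.13, limma adjusted p = 1.54e-05).

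The third member, Elavl4, passed the test in both (fitted -0.30 and -0.25, limma adjusted p = 0.00443 and 0.0141), but all its levels there were under the background, and at day 30 the call was lost without adult tissue array 3 (adjusted p = 0.0560). For Ret the difference was -0.19 at day 3 (95% interval -0.47 to 0.10, limma adjusted p = 0.334) and -0.14 at day 30 (-0.43 to 0.14, adjusted p = 0.475). Tubb3 differed by -0.0039 at day 3 (95% interval -0.24 to 0.23) and by -0.21 at day 30 (-0.45 to 0.03, limma adjusted p = 0.167), where it was called without adult tissue array 1 (-0.33, adjusted p = 0.0175). Ret and Tubb3 thus were not called between epithelial cultures and adult gut wall with 4 arrays a group. Vip and Uchl1 did not overlap with adult tissue at either day, nor did Elavl4, whose levels were under the background. Of all genes, 13.2% at day 3 and 14.7% at day 30 were lower without overlap, and 22.1% and 21.5% were higher without overlap.

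Gut wall markers stood lower in adult organoids too. Of 8 smooth muscle and interstitial cell genes 6 were lower at day 30, where 1 was higher, and 6 at day 3, with list means of 5.19 to 5.46 at day 30 and 5.36 to 5.49 at day 3, against 6.61 to 7.52 in adult tissue. All 4 endothelial genes were lower, with list means of 4.12 to 4.18 at day 30 and 4.11 to 4.22 at day 3, against 5.46 to 5.90 in adult tissue, and Kdr and Tek were below the background in the organoids. All 6 leukocyte genes were lower at both days, with 5.11 to 5.24 at day 30 and 5.16 to 5.44 at day 3, against 6.70 to 6.94 in adult tissue. All 6 fibroblast genes were lower as well, with 5.17 to 5.32 at day 30 and 5.28 to 6.88 at day 3, against 6.81 to 7.22 in adult tissue. Their part in the differences of Vip and Uchl1 was not tested.

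**Figure D3:**
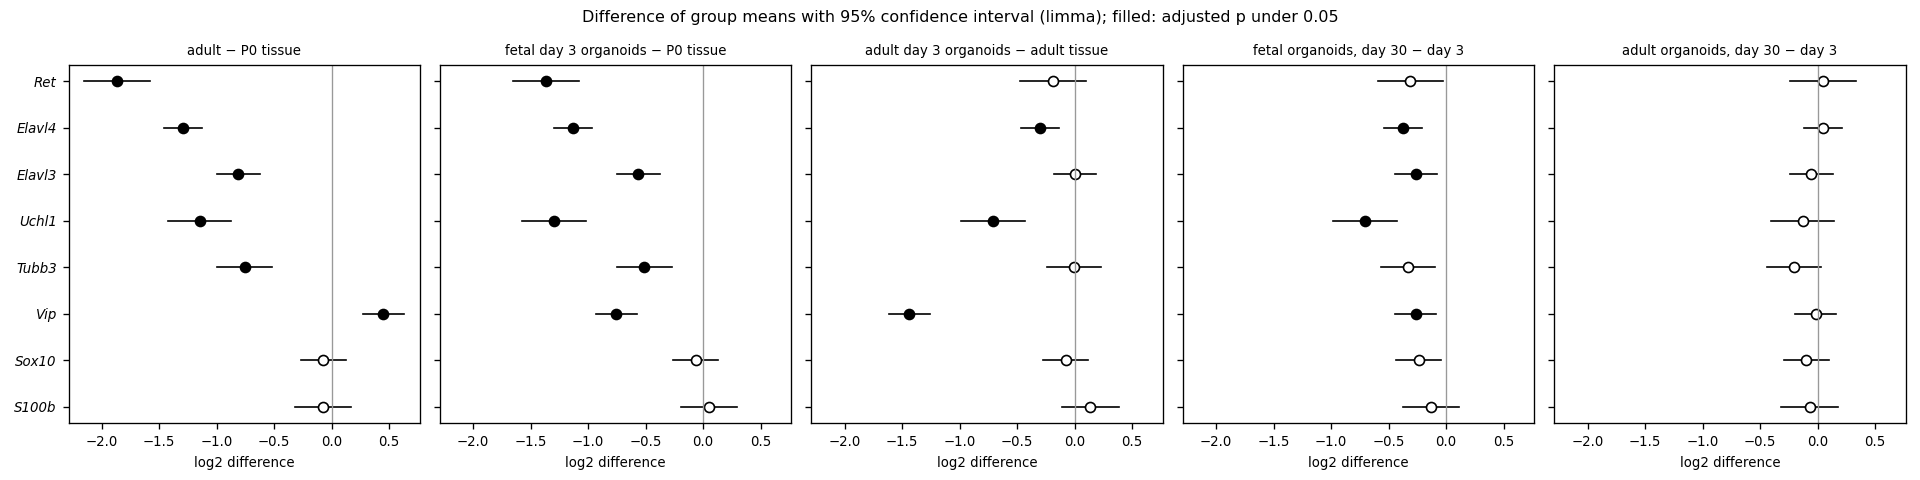
Log2 difference of each of the 8 genes in 5 comparisons, with 95% intervals from limma, where filled points passed the test. Adult minus P0 tissue and fetal day 3 organoids minus P0 tissue show the widest falls of Ret, Elavl4 and Uchl1, and Vip lies above 0 only between the tissues.

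Part of the set was lower after longer culture of fetal organoids. Of the 8 members, 4 were lower at day 30 than at day 3 and 0 were higher, against 15.7% of all genes called, 8.85% lower and 6.81% higher. The median of the 8 differences was -0.29, against -0.03 over all genes. Uchl1 averaged 5.28 ± 0.10 at day 30 and 5.98 ± 0.30 at day 3 (SD), a 1.63-fold fall (log2 difference -0.70 ± 0.13, limma adjusted p = 0.000652). Elavl4 fell to a level under the background at day 30 (fitted -0.37 ± 0.08, limma adjusted p = 0.00222), so no fold is given.

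Vip and Elavl3 were close to the threshold. Vip differed by -0.27 ± 0.09 (limma adjusted p = 0.0388), with the day 30 level under the background, and Elavl3 was at least 1.13-fold lower (fitted -0.26 ± 0.09, limma adjusted p = 0.0480) with overlapping arrays. Tubb3 (-0.33, limma adjusted p = 0.0537), Ret (-0.31, 0.139), Sox10 (-0.24, 0.0931) and S100b (-0.13, 0.526) did not pass. Without fetal day 3 arrays 2 and 3, Uchl1 (-0.46, limma adjusted p = 0.0387) and Elavl4 (-0.40, 0.0162) were still called, while Vip (-0.16, 0.329) and Elavl3 (-0.22, 0.223) were not. The count also fell to 2 without fetal day 3 array 2 alone, fetal day 3 array 3 alone or fetal day 30 array 1 alone. Elavl3 was called only with all 8 arrays or without fetal day 3 array 4, and Vip also lost its call without fetal day 30 array 3 or 4, while Tubb3 gained one without fetal day 3 array 4 or fetal day 30 array 3 or 4 (limma adjusted p as low as 0.0213).

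The other cell types of these cultures moved over the same time. All 6 fibroblast genes fell, with list means of 5.19 to 5.62 at day 30, against 6.19 to 7.43 at day 3, and Dcn and Lum were under the background at day 30. Of 4 endothelial genes 3 fell, of 6 leukocyte genes 4, of 4 acinar genes 3, and of 8 smooth muscle and interstitial cell genes 5, while 1 of the last list, Kit, rose. The enteroendocrine list went up, 11 of 17 genes rising and 0 falling, with list means of 6.10 to 7.14 at day 30, against 5.66 to 6.06 at day 3. Leaving out fetal day 3 arrays 2 and 3 left 10.1% of all genes called. Then 4 fibroblast, 3 endothelial, 4 leukocyte, 2 acinar and 2 smooth muscle genes were called lower, and of the enteroendocrine genes 3 were called higher and 1 lower. The part of these shifts in the members' falls was not tested.

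Neuronal and pathway lists in fetal culture had 6 of 17 pan-neuronal genes lower, 3 of 6 transcription factors, 3 of 10 RET and endothelin genes, 3 of 16 transmitter genes and 1 of 10 glial genes, Cdh19, which was below the background at both days. Of 15 relatives of the members 4 fell: Tubb2b, S100a1, Tubb2a and Tubb6, with log2 differences of -1.37, -1.37, -1.24 and -0.82 (limma adjusted p = 0.00746, 5.69e-05, 0.000427 and 1.10e-05). Ednrb fell to the background (fitted log2 difference -1.20 ± 0.10, limma adjusted p = 3.65e-08), and Gfra2 was 1.96-fold lower (-0.97 ± 0.10, limma adjusted p = 8.76e-07). Sox2 had the widest fall of the transcription factors, to a level under the background (fitted log2 difference -0.93 ± 0.19, limma adjusted p = 0.00130). Hand2 was 1.43-fold lower (limma adjusted p = 0.000448) and Ncam1 1.59-fold lower (limma adjusted p = 0.000764). Gal was 1.79-fold lower (limma adjusted p = 3.31e-08). Edn3 was 1.67-fold lower at day 30 (-0.74 ± 0.16, limma adjusted p = 0.00218). With arrays 2 and 3 of fetal day 3 left out, 2 pan-neuronal genes, 1 transcription factor, 3 RET and endothelin genes, 1 transmitter gene, 0 glial genes and 3 relatives were called lower. Ednrb, Gfra2, Hand2, Ncam1, Gal, Edn3, Tubb2a, S100a1 and Tubb6 stayed among them, while Tubb2b (-1.12, limma adjusted p = 0.104) and Sox2 did not.

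Against these falls, Tac1, Gfra3 and Sox9 rose. Tac1, the gene of substance P, which enteroendocrine cells also make, was 2.60-fold higher at day 30 (log2 difference 1.38 ± 0.22, limma adjusted p = 0.000114). Gfra3, the artemin co-receptor, was 2.23-fold higher (1.16 ± 0.17, limma adjusted p = 5.17e-05). Tac1 averaged 6.88 ± 0.62 at day 30 and 5.50 ± 0.30 at day 3 (SD). Sox9, a relative of Sox10 that crypt epithelium also expresses, differed by 0.53 (limma adjusted p = 0.0191). Without fetal day 3 arrays 2 and 3, Tac1 (1.12, limma adjusted p = 0.00837) and Gfra3 (1.12, 0.00213) were still called and Sox9 was not (0.54, 0.0826). No member rose.

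**Figure D4:**
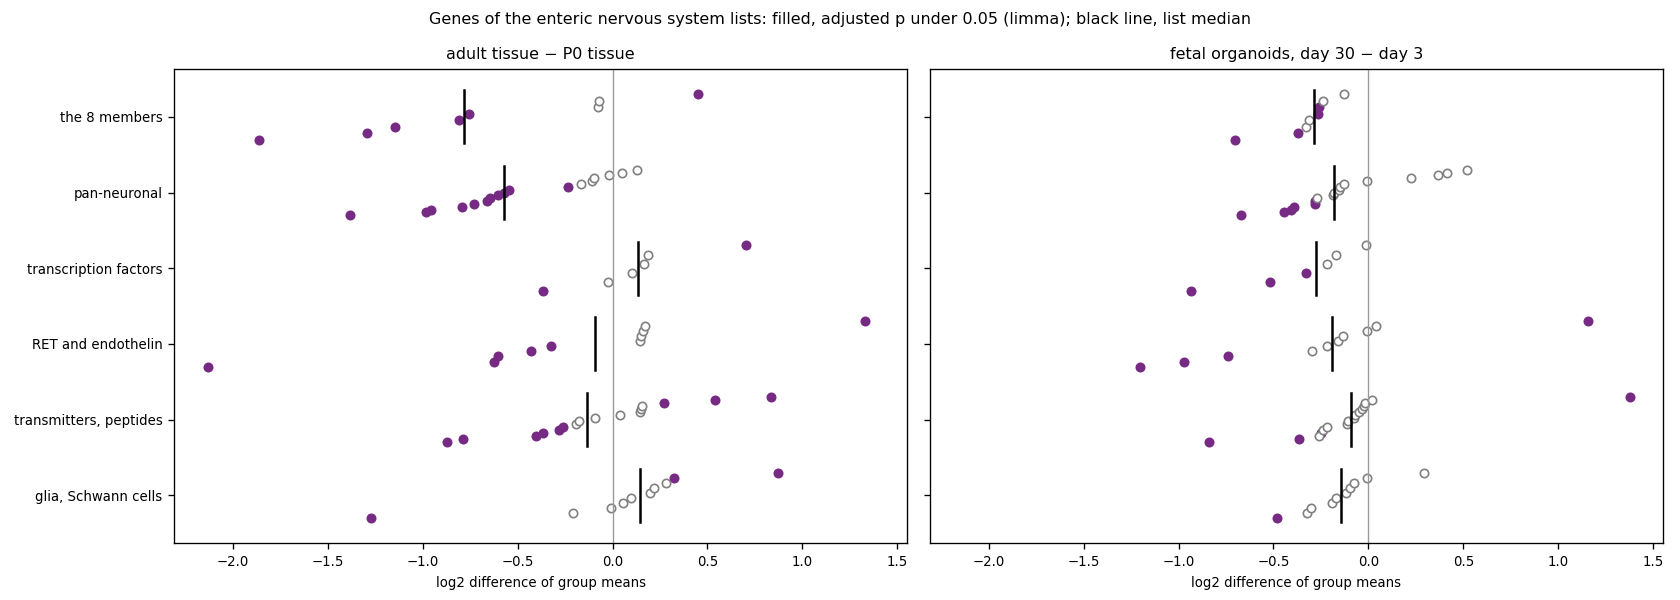
Log2 differences of the genes of each pathway list and of the 8 members in adult minus P0 tissue and in fetal day 30 minus day 3 organoids, 1 point per gene, filled where the gene passed the test, with the list median as a black line. The pan-neuronal median is -0.57 between the tissues and -0.18 in fetal culture, and Ednrb, Edn3, Tac1 and Gfra3 lie apart from their lists.

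In adult organoids no member was called between day 30 and day 3, where hardly any gene was. The limma test called 0 of the 8, and 0.00995% of all genes, 3 in number, while 2553 genes had an unadjusted p under 0.05. The member nearest to a call was Tubb3, with 4.98 ± 0.10 at day 30 and 5.18 ± 0.11 at day 3 (SD; log2 difference -0.21, 95% interval -0.44 to 0.03, limma adjusted p = 0.685). For Uchl1 the interval was -0.40 to 0.14 and for Ret -0.24 to 0.33. The Uchl1 difference in fetal culture was -0.70 (95% interval -0.98 to -0.43), but the 2 changes were not called different (limma adjusted p = 0.112).

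The difference between the fetal and the adult culture change was called for 1 member, Elavl4, against 3.03% of all genes, 2.01% with a negative and 1.03% with a positive difference. It was -0.42 ± 0.11 (limma adjusted p = 0.0439), made of -0.37 in fetal and 0.05 in adult organoids. That call was lost without fetal day 3 arrays 2 and 3 (-0.44, adjusted p = 0.101), where 1.84% of all genes were called. For Elavl4, 3 of the 4 group means were under the background. The call was also lost whichever single array was left out, except fetal day 3 array 4, adult day 3 array 3 or adult day 30 array 3 (log2 difference -0.46 to -0.38 over all arrays left out in turn). For Uchl1 the difference was -0.57 ± 0.19 (limma adjusted p = 0.112), and it was called without fetal day 3 array 1 (adjusted p = 0.0388).

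Adult organoids were also set against fetal organoids of the same culture day. At day 3, 4 members were lower in adult organoids and 0 were higher, against 24.6% of all genes called, 10.1% lower and 14.6% higher. Ret was 1.61-fold lower (log2 difference -0.69 ± 0.14, limma adjusted p = 0.000683) and Uchl1 1.47-fold lower (-0.56 ± 0.13, limma adjusted p = 0.00304). Elavl4 differed by -0.47 ± 0.08 with its adult level under the background (limma adjusted p = 0.000159), and Elavl3 by -0.24 ± 0.09 with overlapping arrays (limma adjusted p = 0.0485). Vip missed the threshold (-0.23, limma adjusted p = 0.0520). Elavl3 was called only with all 8 arrays or without fetal day 3 array 4, and Vip was called without fetal day 3 array 4 or adult day 3 array 3. Without fetal day 3 arrays 2 and 3, Ret (-0.87, limma adjusted p = 0.000775) and Elavl4 (-0.49, 0.00243) were called, and Uchl1 (-0.32, 0.127) and Elavl3 (-0.20, 0.234) were not. That fit called 17.1% of all genes.

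The fibroblast list stood at 5.28 to 6.88 in adult day 3 organoids, against 6.19 to 7.43 in fetal day 3 organoids, with 5 of its 6 genes lower in adult cultures, and all 4 acinar genes were lower too. The fibroblast and acinar counts were 2 and 0 without fetal day 3 arrays 2 and 3. Of 17 enteroendocrine genes 11 were higher and 0 lower in adult cultures, or 5 and 1 without those arrays. Lower too were 3 of 4 endothelial, 4 of 8 smooth muscle and 3 of 6 leukocyte genes, with 0, 1 and 1 higher. Without those arrays the lower counts were 3, 1 and 3. The part of these shifts in the members' differences was not tested. Of 17 pan-neuronal genes 2 were higher and 6 lower, or 0 and 2 without those arrays. At day 30, 0 of the 8 members were called between adult and fetal organoids by limma, against 8.99% of all genes, 2.15% lower and 6.84% higher, while 6086 genes had an unadjusted p under 0.05. Ret was nearest, with 5.70 ± 0.19 in adult and 6.03 ± 0.12 in fetal day 30 organoids (SD; log2 difference -0.33, 95% interval -0.61 to -0.04, limma adjusted p = 0.161).

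Genes with the pattern most like each member were taken from 5277 genes whose group means spanned at least 1 on the log2 scale and reached at least 1 above the background in some group, by Pearson r over the 24 arrays. For Uchl1 they were Ncam1 (0.99), the endothelial cadherin gene Cdh5 (0.98) and Plekhh2 (0.98). For Elavl4 they were Adcy3, Gatm and Tenm3 (0.98 to 0.99), and for Ret they were Hyal5, Serpina1e and Ppp1r32 (0.97 each). For Vip they were Dock10, Gimap4 and Asb2 (0.97 to 0.98). The closest for Tubb3 was Arhgap10 (0.93) and for Elavl3 Lrrc4 (0.95), while none passed 0.75 for Sox10 or 0.51 for S100b.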

How the data were processed

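The authors deposited log2 signals of 24 arrays, made with Affymetrix Expression Console and RMA per the submitters' processing notes. RMA corrects background, quantile normalizes arrays and summarises probes, and compresses differences at low signal. The authors' versions, genome build and annotation are not given in the sources that were used. Per the labels, 1 µg of total RNA was labelled with biotin. Precision is limited by the number of arrays.

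Of 72688 probe sets, 65770 were transcript clusters. Of these, 30604 named 1 gene and 2146 named several and were left out. For 827 an older symbol was updated. For 355 genes with several clusters the one with the highest mean was used, which gave 30142 genes. Each member had 1.

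With limma 3.58.1 (R 4.3.3), 1 model with a mean for each of the 6 groups was fitted to all arrays (residual df 18, prior df 4.25), with Benjamini-Hochberg adjustment over all genes and calls at 0.05, in 9 comparisons. The fit was tested on simulated data. A group mean under the mean of its arrays' negative control medians was taken as below background. The 8 members, the 14 gene lists, the comparisons and the alternatives were chosen with earlier results of these data known. Named list genes were taken from those called with the widest differences, up to 4 per list in the tissue and fetal culture comparisons. Called genes against their list were added, and not all of these genes are named. Chat, Gfap and other uncalled list genes enter only counts, and Gfra1, Gdnf, Nos1 in tissue and Vipr2 were added after their values were seen. The alternatives used averaged clusters per gene, a filter that kept the 16664 genes exceeding the median of 4 or more arrays, a robust trended prior, the compared groups alone, centred arrays, a second quantile normalization, a replicate block, each array left out, and arrays that stood apart left out, which for the gene lists was added after seeing the data. Python 3.11.15 with pandas 2.3.3 and matplotlib 3.10.9 was used for annotation and figures.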

Additional observations from a re-analysis of the deposited data

Results flagged for a closer look

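In 4 of the 48 sets of 4 arrays (8 members in 6 groups), 1 array lay far from the other 3 by Dixon's test, which chance does in about 1 set in 20. Elavl4 in adult day 3 organoids had 3.62 on array 3, against 3.46 to 3.48 on the others, all under the background. Elavl3 in adult day 30 organoids had 4.29 on array 1, against 4.09 to 4.11. Tubb3 in adult day 3 organoids had 5.02 on array 3, against 5.22 to 5.25. Tubb3 in adult tissue had 4.83 on array 1, against 5.27 to 5.34, and without that array the difference from P0 tissue was -0.64 with the call kept.

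The culture change of Elavl4 differed between fetal and adult organoids by -0.42 in the interaction test of limma (adjusted p = 0.0439), a call that was lost with centred arrays (-0.36, limma adjusted p = 0.116), a second quantile normalization (-0.37, 0.0904), a replicate block (-0.42, 0.0592) and without fetal day 3 arrays 2 and 3 (-0.44, 0.101). It was kept with averaged clusters, a robust prior and the compared groups alone, and the filter on low genes removed Elavl4.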

How the results depend on the processing

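Of the alternatives for single members, 1117 kept side and direction, 10 moved past the threshold, 54 fell short of it and 0 reversed. The 6 calls between adult and P0 tissue and the 6 between fetal day 3 organoids and P0 tissue held in number under each alternative, also with any 1 array left out (6 to 6), except that the filter on low genes left 4 in each, since it removed Elavl4, Elavl3 and S100b from the test. With 1 array left out, the number called was 3 to 3 for adult day 3 organoids against tissue, 2 to 4 for adult day 30 organoids against tissue, 2 to 5 in fetal culture, 0 to 0 in adult culture, 0 to 1 for the difference of culture changes, 3 to 5 between adult and fetal organoids at day 3 and 0 to 0 at day 30. In fetal culture the count of 4 became 2 with the compared groups alone, with centred arrays, with a second quantile normalization and without fetal day 3 arrays 2 and 3. The single call for the difference of culture changes became 0 with low genes filtered out, which removed Elavl4, and with centred arrays, a second quantile normalization, a replicate block, and without fetal day 3 arrays 2 and 3. Between adult and fetal organoids at day 3, the count of 4 became 2 without fetal day 3 arrays 2 and 3. Apart from the filter, the cause was not tested. Scaling moved the median of all genes by -0.09 to 0.09.

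Replicate numbers are shared between groups, but the arrays share only a number. Deviations from group means of same-numbered arrays correlated at -0.31 to 0.29 (60 pairs, 8 over 0.1), and those of different numbers at -0.42 to 0.46. With the replicate block, 6 members were called between the tissues, 6 for fetal day 3 organoids against P0 tissue, 3 and 3 for adult organoids against tissue, 3 in fetal culture, 0 in adult culture, 0 for the difference, and 3 and 0 between adult and fetal organoids. The block left Elavl3 uncalled in fetal culture (adjusted p = 0.0644) and at day 3 (0.0637), and Elavl4 in the difference of culture changes (0.0592).

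Signal over background limits the low genes: S100b was below it in all 6 groups, Elavl4 in 4, Vip in 3 and Elavl3 in 2, where only bounds hold.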

Other observations

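Adult day 3 organoids had Tac1, the substance P gene, above adult tissue 4.004-fold (limma adjusted p = 1.02e-07), while Ednrb was lower, with a log2 difference of -2.28. Gfra3 was higher by 0.46 (limma adjusted p = 0.0405). In the same comparison 8 of 17 enteroendocrine genes were higher and 1 was lower, with list means of 6.41 to 6.76 in adult day 3 organoids, against 5.73 to 6.17 in adult tissue.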
